A study of Mus musculus with 2 samples.

Results

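Transcript levels of 7 genes of the RAS-MAPK pathway were taken from 2 libraries of mouse leukemia stem cells. The genes were Nras, Hras, Braf, Map2k1, Map2k2, Mapk3 and Nf1. They were chosen by name as core members of the pathway, not by a threshold on their values, though with earlier results of these data known, and each was found by its Ensembl identifier among the 43346 rows with such an identifier, of which 21474 were protein-coding genes. The libraries, numbered 1 and 2 as biological replicates, made up 1 group. Its cells came from adult mice of 10 to 12 weeks, male and female animals pooled, and carried Friend virus, a retrovirus that causes erythroleukemia. They were labelled as CD34+, CD133+, Kit+ and Sca1+, and per the labels the strain, which is not named, has to carry Fv2s, the allele of Fv2 that makes mice sensitive to the virus. Uninfected or unsorted cells were not analysed here, so the values are levels and not responses. Both libraries carry the same donor record and different biosamples, so part of the spread between replicates could be technical.

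In this pathway an activated receptor recruits an exchange factor that loads RAS proteins, small GTPases at the membrane, with GTP. RAS-GTP recruits RAF kinases such as BRAF, RAF phosphorylates the MEK kinases (MEK1 from Map2k1, MEK2 from Map2k2), and MEK phosphorylates the ERK kinases (ERK1 from Mapk3), which act on cytoplasmic and nuclear targets. Neurofibromin, the product of Nf1, returns RAS to its GDP-bound state and so restrains the cascade. In blood-forming cells the pathway acts downstream of Kit, the erythropoietin receptor and other cytokine receptors, and mutations of NRAS and NF1 are known in human myeloid leukemias.

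Replicate 1 held 23575315 expected counts in total and replicate 2 held 22541765. An expected count is an estimated number of fragments that need not be whole. Of the 4 genes encoding the sort markers, 2 reached 1 TPM (a transcript level corrected for length and library size) in both libraries. These were Kit (1.81 and 1.06 TPM in replicates 1 and 2) and Ly6a, which encodes Sca1 (1.45 and 2.15 TPM). Cd34 had 1.8 and 0.27 TPM, and Prom1, which encodes CD133, had 0.06 and 0 TPM from 3 and 0 counts. The summed level of the 4 genes was 5.12 TPM in replicate 1 and 3.48 TPM in replicate 2. All 7 erythroid markers reached 1 TPM in both, with a summed level of 88426 TPM in replicate 1 and 153435 TPM in replicate 2, led by Hba-a1. Markers of other cells were also measured at 1 TPM in both libraries, including 5 of 6 for macrophages (summed 917.0 and 1247 TPM in replicates 1 and 2), 4 of 5 for B cells (691.9 and 280.4 TPM), 3 of 6 for T and NK cells (79.6 and 75.7 TPM), 4 of 5 for neutrophils (24.5 and 19.3 TPM), 3 of 5 for megakaryocytes (90.7 and 72.7 TPM), 1 of 4 for endothelium (9.33 and 3.23 TPM) and 2 of 4 for fibroblasts (11.01 and 10.41 TPM, with Dcn at 0 counts). The part of these cells in the values of the 7 genes was not tested, and in such bulk RNA fewer cells of a type and less RNA per cell cannot be told apart.

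All 7 genes reached 1 TPM in both libraries, as did 8942 of 21474 protein-coding genes (41.6%). Their levels spread widely around a median of 15.7 TPM, where the median of the protein-coding genes at 1 TPM or more in both libraries was 15.4 TPM. Map2k2 stood highest, at rank 214 of 21474 by mean TPM, and was followed by Mapk3 at rank 1001 and Hras at rank 1977. Map2k1 had rank 4438 and Nf1 rank 4877, and Braf and Nras came last at ranks 7990 and 8386. In this order the values of the 2 libraries overlapped between Map2k1 and Nf1 and between Braf and Nras, so neither pair was separated beyond its spread. The other neighbours did not overlap.

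**Figure D1:**
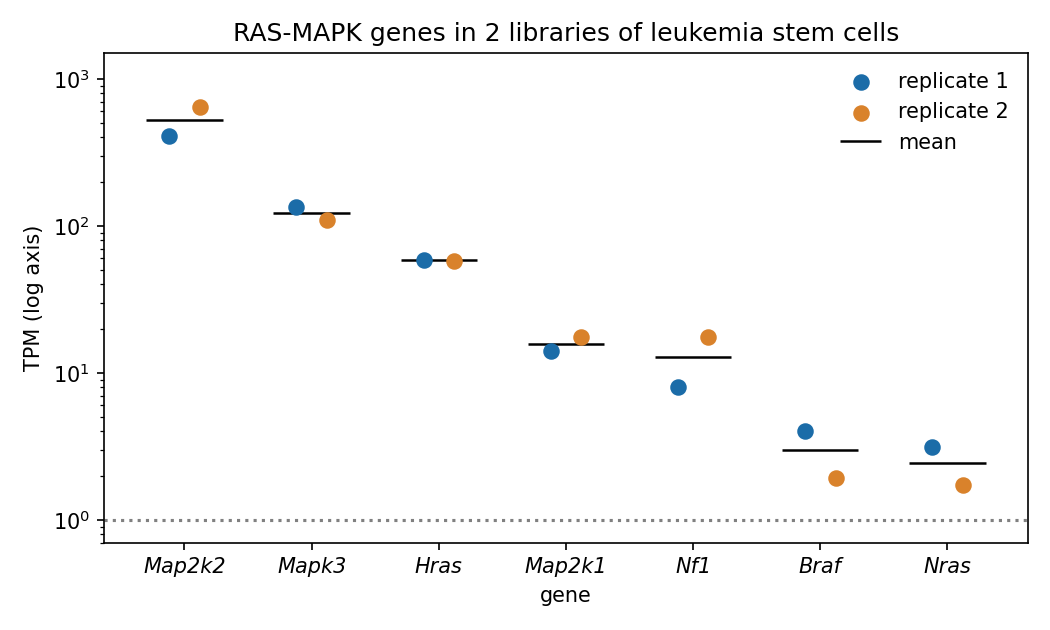
Level of each gene in TPM on a log axis, with 1 point for each library (replicate 1 left, replicate 2 right), the mean as a bar and 1 TPM as a dotted line. Map2k2 lies above 400 TPM in both libraries and Braf and Nras lie between 1.73 and 4.02 TPM.

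Of the RAS genes Hras was abundant and Nras was scarce. Hras (ENSMUSG00000025499.13, mm10 chromosome 7, 141189105 to 141194005, minus strand) had 59.0 TPM in replicate 1 and 58.0 TPM in replicate 2, from 1012 and 1020 counts, a mean of 58.5 ± 0.686 TPM (SD, n = 2). Nras (ENSMUSG00000027852.10, chromosome 3, 103058285 to 103067914, plus strand) had 3.13 TPM in replicate 1 and 1.73 TPM in replicate 2, from 265 and 88 counts, a mean of 2.43 ± 0.990 TPM. Hras was thus 18.9 times as high as Nras in replicate 1 and 33.6 times in replicate 2. Of the TPM of the pair, Hras held 94.96% in replicate 1 and 97.1% in replicate 2. Hras was the higher gene in both libraries by a margin far beyond the spread of either. Hras and Nras share no stretch of 25 bases in the annotated transcripts.

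Much of the Hras signal was assigned to transcripts that differ around 1 exon. Hras-202, the coding transcript that joins the exon upstream to the last coding exon directly, held 35.4% of Hras TPM in replicate 1 and 24.9% in replicate 2. An exon of 82 bases (chr7:141191955-141192036, minus strand) lies whole in Hras-203, Hras-205 and Hras-207. In human cells, inclusion of an alternative HRAS exon is known to give a shorter RAS protein, p19-RAS, in place of the full-length form. Whether the mouse exon gives such a protein was not tested. The sequences after the shared upstream exon are shown because they separate these forms. They are GENCODE M21 transcript sequences read in the direction of the gene, with the last 30 bases of the upstream exon (chr7:141192131-141192160) in lower case and the bases after the junction in capitals, which are the whole 82-base exon in Hras-203 and the first 60 bases of the next exon (chr7:141191408-141191467) in Hras-202.
Hras-203: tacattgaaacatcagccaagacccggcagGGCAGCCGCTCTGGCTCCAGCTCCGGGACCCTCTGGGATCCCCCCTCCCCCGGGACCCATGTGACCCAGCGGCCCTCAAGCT
Hras-202: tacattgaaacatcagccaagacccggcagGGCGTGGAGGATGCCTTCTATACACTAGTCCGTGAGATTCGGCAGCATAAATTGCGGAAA
After the junction both start with GGC and then part.

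Transcripts holding the whole 82-base exon together took 39.8% of Hras TPM in replicate 1 and 44.0% in replicate 2. Hras-203, annotated as coding, held 31.3% in replicate 1 and 25.6% in replicate 2, and Hras-207, also coding, 2.75% and 10.1%. Hras-203 is 845 bases long in the deposited table and 1073 bases in M21, so the model used by the authors was shorter than the one read here. Hras-206, a transcript annotated for nonsense-mediated decay (the degradation of transcripts with an early stop), starts inside the exon with 23 of its bases and held 18.8% in replicate 1 and 31.1% in replicate 2. It is only 447 bases long, so that 69.0 counts in replicate 1 and 110 counts in replicate 2 gave it these shares. By TPM, Hras-202 led in replicate 1 and Hras-206 in replicate 2; by counts, Hras-202 led in both, with 440 counts in replicate 1 and 304 in replicate 2.

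For Nras the libraries also differed in the leading transcript. The coding transcript Nras-201 held all of the Nras TPM in replicate 1 and 36.0% in replicate 2, where Nras-202, a target of nonsense-mediated decay, held 64.0% from 35.3 counts. In replicate 1 Nras-202 had 0 counts, which allow up to 0.0939 TPM at a floor of 3 counts. The coding level of Nras was therefore 3.13 TPM in replicate 1 and 0.620 TPM in replicate 2, under 1 TPM in the second library. All of the transcript shares are the authors' estimates, and 88 counts for the whole gene in replicate 2 leave little to divide. Of the 25-base words in Nras transcripts, 4.42% also occur in other genes.

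Braf was scarce and lay below its paralog Araf in both libraries. Braf (ENSMUSG00000002413.11, chromosome 6, 39603237 to 39725463, minus strand), whose kinase is the strongest MEK activator of the family, had 4.02 TPM in replicate 1 and 1.92 TPM in replicate 2, from 433 and 357 counts (mean 2.97 ± 1.48 TPM). Araf, which encodes a weaker MEK activator, had 60.6 TPM in replicate 1 and 6.25 TPM in replicate 2, from 1217 and 215 counts. Araf was 15.1 times as high as Braf in replicate 1 and 3.25 times in replicate 2. Of the TPM of the pair, Braf thus held 6.22% in replicate 1 and 23.5% in replicate 2.

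**Figure D2:**
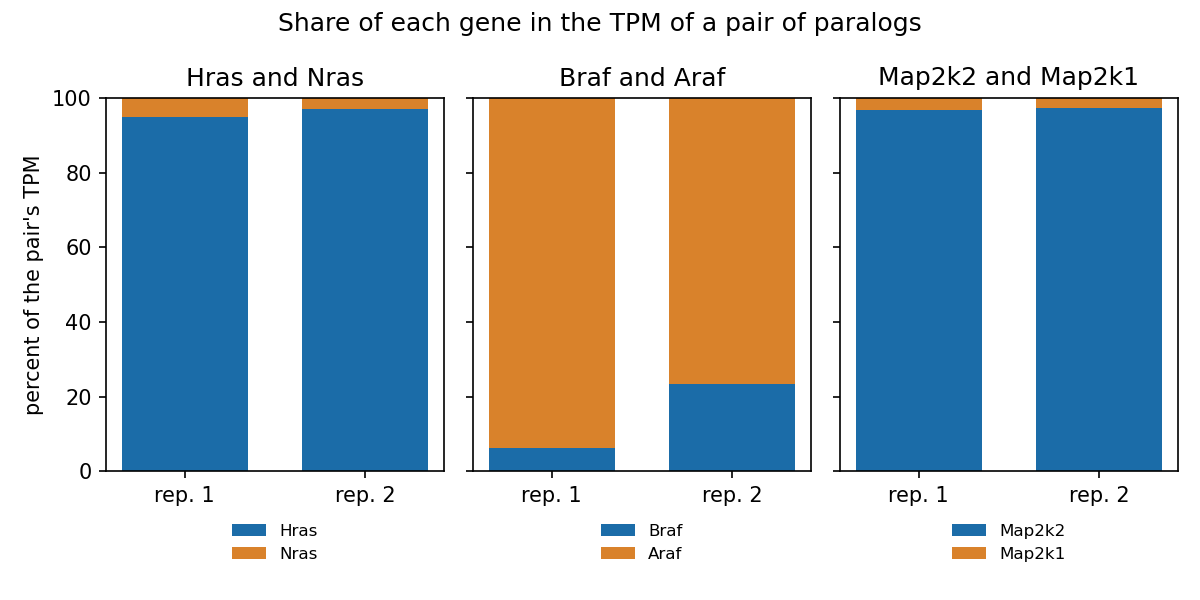
Share of each gene in the summed TPM of a pair of paralogs, in percent, for replicate 1 (left bar) and replicate 2 (right bar). Hras holds 94.96% and 97.1% of the first pair, Braf 6.22% and 23.5% of the second and Map2k2 96.7% and 97.4% of the third.

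The full-length coding transcript Braf-201, of 9728 bases, led in both libraries and held 51.2% of Braf TPM in replicate 1 and 97.3% in replicate 2. Its own level was close in the libraries, at 2.06 TPM in replicate 1 and 1.86 TPM in replicate 2. The rest of replicate 1 lay in short transcripts with few counts. Braf-205, a retained-intron transcript of 528 bases, held 29.6% from 9.32 counts in replicate 1 and had 0 counts in replicate 2, which allow up to 0.390 TPM. The coding transcript Braf-202 held 18.6% in replicate 1 and 2.69% in replicate 2. Ndufb2, a subunit gene of respiratory complex I on the opposite strand, overlaps the Braf locus and had 1605 counts in replicate 1 and 2001 in replicate 2, several times those of Braf. Whether fragments were counted by strand is not given in the sources used here, so fragments in the overlap cannot be assigned to either gene with certainty.

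The MEK step was carried almost wholly by Map2k2 at the level of RNA. Map2k2 (ENSMUSG00000035027.13, chromosome 10, 81105915 to 81133975, plus strand) had 407 TPM in replicate 1 and 647 TPM in replicate 2, from 12063 and 20271 counts, a mean of 526.7 ± 169.6 TPM. Map2k1 (ENSMUSG00000004936.8, chromosome 9, 64185770 to 64253631, minus strand) had 14.0 TPM in replicate 1 and 17.4 TPM in replicate 2, from 479 and 794 counts, a mean of 15.7 ± 2.40 TPM. Both genes were higher in replicate 2. Map2k2 was 29.0 times as high as Map2k1 in replicate 1 and 37.1 times in replicate 2, and held 96.7% and 97.4% of MEK TPM.

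The kinases are close paralogs, so their most alike coding stretch was compared to show how far reads could be shared. Over 90 bases, at coding positions 352 to 441 of Map2k1 and 364 to 453 of Map2k2 counted from the start codon, 87 bases were identical and 3 differed. The differing bases are in capitals. The stretch crosses an exon junction in each gene, and its ends lie at chr9:64205186-64212670 (minus strand) and chr10:81115086-81118154 (plus strand) of GRCm38/mm10.
Map2k1: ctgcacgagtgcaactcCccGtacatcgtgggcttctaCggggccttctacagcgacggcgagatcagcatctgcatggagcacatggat
Map2k2: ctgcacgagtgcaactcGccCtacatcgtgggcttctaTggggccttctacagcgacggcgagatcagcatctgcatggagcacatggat
The longest identical run within the 90 bases was 51 bases. It reached the end of the stretch, so its full length was not measured. Beyond this kind of stretch the transcripts were distinct, since only 53 words of 25 bases, 1.57% of those of Map2k1, occur in both genes.

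Map2k2-202, the main coding transcript, held 88.6% of Map2k2 TPM in replicate 1 and 78.2% in replicate 2. A longer coding transcript, Map2k2-207, held 9.83% in replicate 1 and 19.2% in replicate 2. Coding transcripts together took 98.4% in replicate 1 and 97.4% in replicate 2. For Map2k1, the full-length coding transcript Map2k1-201 held 68.3% in replicate 1 and all of the TPM in replicate 2. The noncoding Map2k1-203, of 597 bases, held 28.8% in replicate 1 from 37.1 counts and had 0 counts in replicate 2, which allow up to 0.331 TPM. The coding level of Map2k1 was 9.59 TPM in replicate 1 and 17.4 TPM in replicate 2.

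Mapk3, which encodes ERK1, was abundant, with nearly the same transcript shares in both libraries. Mapk3 (ENSMUSG00000063065.9, chromosome 7, 126759601 to 126765819, plus strand) had 134 TPM in replicate 1 and 110 TPM in replicate 2, from 4259 and 3507 counts, a mean of 122 ± 16.8 TPM. The coding transcripts Mapk3-203 and Mapk3-202 held 67.5% and 32.2% in replicate 1 and 66.6% and 33.3% in replicate 2. Of the 25-base words of Mapk3, 6.38% also occur elsewhere, the most with the processed pseudogene Gm15546, which had 0 TPM in both libraries.

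Nf1, the restraint on RAS, had a middle level as a gene and a low one in its coding transcripts. Nf1 (ENSMUSG00000020716.11, chromosome 11, 79339693 to 79581612, plus strand) had 8.03 TPM in replicate 1 and 17.6 TPM in replicate 2, a mean of 12.8 ± 6.79 TPM, from 652 and 600 counts. The libraries thus had nearly equal counts and unlike TPM. The authors' effective length of the gene, by which counts are divided, was 4111 bases in replicate 1 and 1714 bases in replicate 2.

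Most of the TPM belonged to a short noncoding transcript at the start of the gene. Nf1-207, a processed transcript of 721 bases in 2 exons, held 61.5% of Nf1 TPM in replicate 1 and 89.9% in replicate 2, but only 57.4 counts in replicate 1 and 183 counts in replicate 2. Nf1-201, the full-length coding transcript of 11917 bases in 58 exons, held 28.4% in replicate 1 and 10.1% in replicate 2 with 531 and 417 counts. Over coding transcripts the level of Nf1 was 3.0 TPM in replicate 1 and 1.78 TPM in replicate 2. The order of the libraries was therefore opposite for all transcripts, higher in replicate 2, and for coding transcripts, higher in replicate 1.

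The first exon of Nf1-207 starts 132 bases upstream of Nf1-201 and ends at the same donor site, and its second exon (chr11:79344833-79345186) lies in the first intron of Nf1-201. The junctions are shown because they are where the coding and the noncoding form part. The last 30 bases of the shared first exon (chr11:79340030-79340059) are in lower case, and the first 60 bases of the next exon are in capitals (chr11:79344833-79344892 for Nf1-207, chr11:79384175-79384234 for Nf1-201, plus strand, from GENCODE M21).
Nf1-207: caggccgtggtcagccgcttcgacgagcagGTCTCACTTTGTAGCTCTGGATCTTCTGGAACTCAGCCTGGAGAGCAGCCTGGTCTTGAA
Nf1-201: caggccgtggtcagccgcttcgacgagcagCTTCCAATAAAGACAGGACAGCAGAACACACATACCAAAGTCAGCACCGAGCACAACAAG
The first exon of Nf1-207 has 77.9% GC and 211 of its 343 words of 25 bases also occur in Nf1-201, while none of the 330 words of the second exon do. The deposited counts do not say in which exon the fragments of Nf1-207 lay. Evi2b, a transmembrane protein gene inside an Nf1 intron on the opposite strand, had 413 counts in replicate 1 and 122 in replicate 2.

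**Figure D3:**
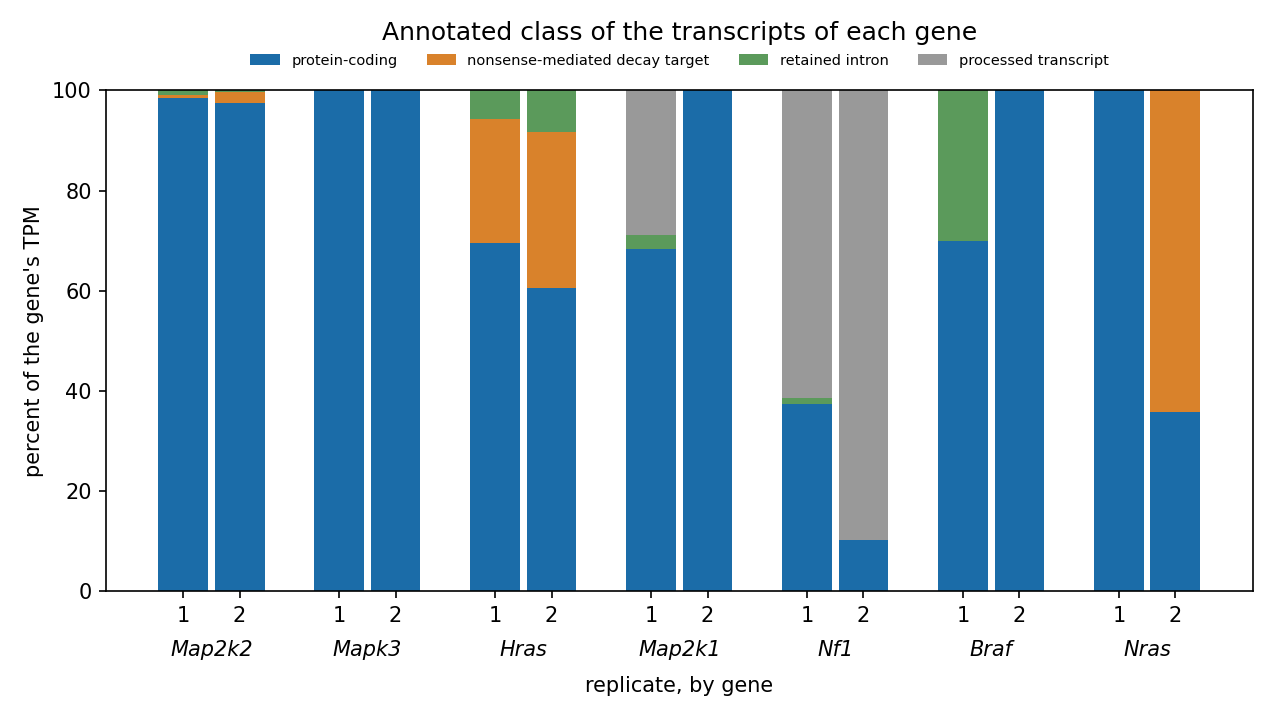
Percent of each gene's TPM assigned to transcripts of each annotated class, with replicate 1 left and replicate 2 right in each pair. Mapk3 and Map2k2 are almost wholly coding in both libraries, and the coding share of Nf1 is 37.4% in replicate 1 and 10.1% in replicate 2.

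Across the 7 genes, 38 transcripts were listed, 17 of them coding, and all 7 genes had more than 1. The transcript with the highest share of TPM was the same in both libraries for 5 genes, all but Hras and Nras, while by counts it was the same for all 7. Coding transcripts took most of the counts of every gene, at least 59.9% in the library where their share was lowest (Nras in replicate 2). For Nf1 they took 90.1% of the counts in replicate 1 and 69.6% in replicate 2, against 37.4% and 10.1% of its TPM.

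The libraries were next set against each other by the log2 ratio of replicate 1 to replicate 2, from counts scaled by TMM (trimmed mean of M values), with an exact binomial 95% interval that covers counting error only. A gene was called apart where that interval lay wholly outside 2-fold. Of the 7 genes 2 were apart, against 2739 of 11708 protein-coding genes (23.4%), so the count lay near the share among all genes. Both were MEK genes and higher in replicate 2, the direction of 8.78% of all genes; 14.6% were higher in replicate 1. The ratio was −1.24 (−1.27 to −1.21) for Map2k2 and −1.22 (−1.39 to −1.06) for Map2k1. With 1 library on each side no p-value was computed.

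The other 5 genes were not apart. The ratio was −0.50 (−0.63 to −0.38) for Hras, −0.37 (−0.53 to −0.21) for Nf1, −0.21 (−0.42 to −0.01) for Braf and −0.21 (−0.28 to −0.15) for Mapk3. Nras, at 1.09 (0.75 to 1.46), was the only member above 0, and its interval reached inside 2-fold. The median of the 7 genes was −0.37, and that of all genes 0.04. Scaling by total counts moved the median of all genes to 0.47; on that scale the split of all genes apart was 2703 higher in replicate 1 and 370 higher in replicate 2, where TMM gave 1711 and 1028. Both MEK genes then lay within 2-fold, at −0.79 for Map2k1 and −0.81 for Map2k2, and Nras was apart at 1.52. Braf (0.21), Mapk3 (0.22) and Nf1 (0.055) also lay above 0 on that scale, though below the median of all genes. Araf, the paralog of Braf, was apart with TMM, at 2.01 (1.80 to 2.23).

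**Figure D4:**
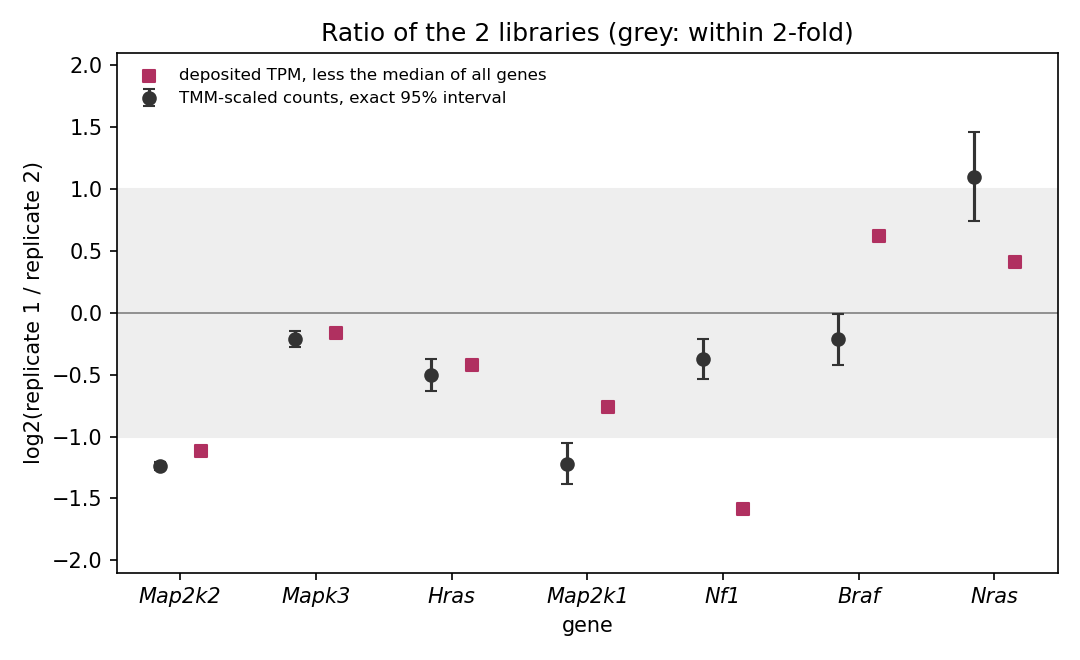
log2 ratio of replicate 1 to replicate 2 for each gene, from TMM-scaled counts with exact 95% intervals (circles) and from deposited TPM less the median of all genes (squares); the grey band is 2-fold. The circles of Map2k2 and Map2k1 lie below the band, and for Nf1 and Braf circle and square lie far apart.

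Ratios of TPM and of TMM-scaled counts differed in scale, with medians over all genes of 0.45 and 0.04. Relative to these medians, they departed most for Nf1, Braf, Nras and Map2k1, whose effective lengths differed between the libraries. For Nf1 the log2 TPM ratio was −1.13, for Braf 1.07, for Nras 0.85 and for Map2k1 −0.31, with a median of 0.45 over all genes. The effective length of Braf was 5448 bases in replicate 1 and 9386 bases in replicate 2, that of Nras was 4284 and 2568 bases, and that of Map2k1 was 1728 and 2296 bases. Relative to the median of all genes, Nras had 1.05 by counts and 0.41 by TPM, and Nf1 had −0.41 and −1.58. In the same way Braf had −0.255 by counts and 0.62 by TPM, and Map2k1 had −1.26 and −0.76. For Hras, Mapk3 and Map2k2, whose effective lengths were nearly equal, the TPM ratios were 0.02, 0.28 and −0.67. Relative to the median of all genes, Hras had −0.54 by counts and −0.425 by TPM. Mapk3 had −0.25 and −0.17, and Map2k2 −1.28 and −1.12.

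The replicate ratio of all genes also moved with the GC content of their longest transcript. With the genes in 10 equal bins of GC, the median was 0.73 in the lowest bin and −0.69 in the highest. For centring, the median of a gene's bin was subtracted from its ratio and that of all genes, 0.04, was added back. Map2k2, with 60.4% GC, fell in the highest bin, and after centring its ratio was −0.51, within 2-fold. Map2k1, with 51.2% GC, lay in bin 6, where the median was 0.12, and was still apart at −1.30 after centring. Nras, with 42.6% GC, lay in bin 2, where the median was 0.43, and had 0.71 after centring. Mapk3 then lay above 0 as well, at 0.108 (0.043 to 0.173). Hras had −0.332, Braf −0.601 and Nf1 −0.595 after centring, all within 2-fold.

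The 7 genes were also viewed among 13 lists of genes by role in the pathway, 145 genes in all, of which 144 were analysed. Of these, 112 (77.8%) reached 1 TPM in both libraries, against 41.6% of all protein-coding genes. That 41.6% is also the share to set beside the counts of each list given below. The median of the 144 genes was 11.4 TPM. Of them, 21 averaged at least 100 TPM, for which no share among all genes was computed. Of the 134 listed genes with 20 or more counts, 24 (17.9%) were apart between the libraries with TMM, against 23.4% of all protein-coding genes. Of these, 16 were higher in replicate 1 and 8 in replicate 2, where the shares among all genes were 14.6% and 8.78%. The median ratio of the listed genes was −0.08.

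Upstream of Hras and Nras, 14 of 23 listed genes for receptors and adaptor proteins reached 1 TPM in both libraries. The erythropoietin receptor gene Epor had 471.7 ± 259.9 TPM, and the adaptor genes Shc1 and Dok1 had 155 ± 1.82 and 110.1 ± 15.6 TPM. Of 10 genes for phosphatases and exchange factors 8 reached that level. They were led by the exchange factor gene Rasgrp2 (54.3 ± 7.77 TPM), and the phosphatase genes Ptpn6 (45.8 ± 17.0 TPM) and Ptpn11 (28.2 ± 9.49 TPM). Which GTPases the product of Rasgrp2 acts on in these cells was not tested. Among the 10 listed genes of the RAS family, 8 reached it, with Hras the highest of the 10. Rras2 had 32.9 ± 5.73 TPM, Rit1 16.9 ± 6.06 TPM, Rheb 14.8 ± 1.41 TPM, Rras 9.23 ± 5.35 TPM, Rap1b 8.43 ± 2.65 TPM and Rap1a 4.24 ± 0.134 TPM, all above Nras. Mras, at 0.735 ± 0.134 TPM, lay below Nras, and Eras had 0 counts in both libraries, which allow up to 0.161 TPM.

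Nf1 lay within the range of the genes that restrain RAS. Of the 13 such genes listed 10 reached 1 TPM in both libraries. Spred2, whose product binds neurofibromin, had 112 ± 44.8 TPM, and the GTPase-activating protein gene Rasal3 had 97.7 ± 85.1 TPM. All 9 genes for RAS processing, palmitoylation and depalmitoylation reached 1 TPM in both, led by the thioesterase genes Lypla2 (431 ± 64.0 TPM) and Lypla1 (236 ± 31.1 TPM), and by Pde6d (33.9 ± 24.3 TPM), which encodes a chaperone of prenylated proteins.

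Around the kinases, 14 of 17 scaffold and RAF regulator genes reached 1 TPM in both libraries. Pebp1, which encodes a RAF inhibitor, had 627.8 ± 216.6 TPM, the chaperone gene Hsp90ab1 382 ± 397 TPM and the phosphatase gene Ppp1ca 309 ± 193 TPM. The most abundant 3 genes of the parallel MAP kinase modules were the kinase genes Map2k7 (JNK pathway) with 186 ± 1.30 TPM, Map2k3 (p38 pathway) with 159 ± 33.7 TPM and Map2k5 (ERK5 pathway) with 37.8 ± 10.5 TPM, all of them below Map2k2. In those modules 10 of 16 genes reached 1 TPM in both.

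Downstream of Mapk3, all 18 ERK substrates and targets reached 1 TPM in both libraries. The ERK-activated kinase gene Mknk2 had 783 ± 194 TPM, and the transcription factor genes Myc and Egr1 had 434 ± 81.7 and 164 ± 17.3 TPM. Of 11 analysed negative feedback genes 9 reached 1 TPM in both and none a mean of 100 TPM. Dusp1, Dusp7 and Dusp2, phosphatases of MAP kinases, led with 22.01 ± 2.09, 16.3 ± 3.63 and 11.7 ± 0.382 TPM. Of 12 genes for other RAS effectors 7 reached it, led by the Ral exchange factor gene Rgl2 (178 ± 57.2 TPM), the PI3-kinase subunit gene Pik3cd (50.9 ± 21.4 TPM) and Rassf1 (13.5 ± 1.98 TPM).

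**Figure D5:**
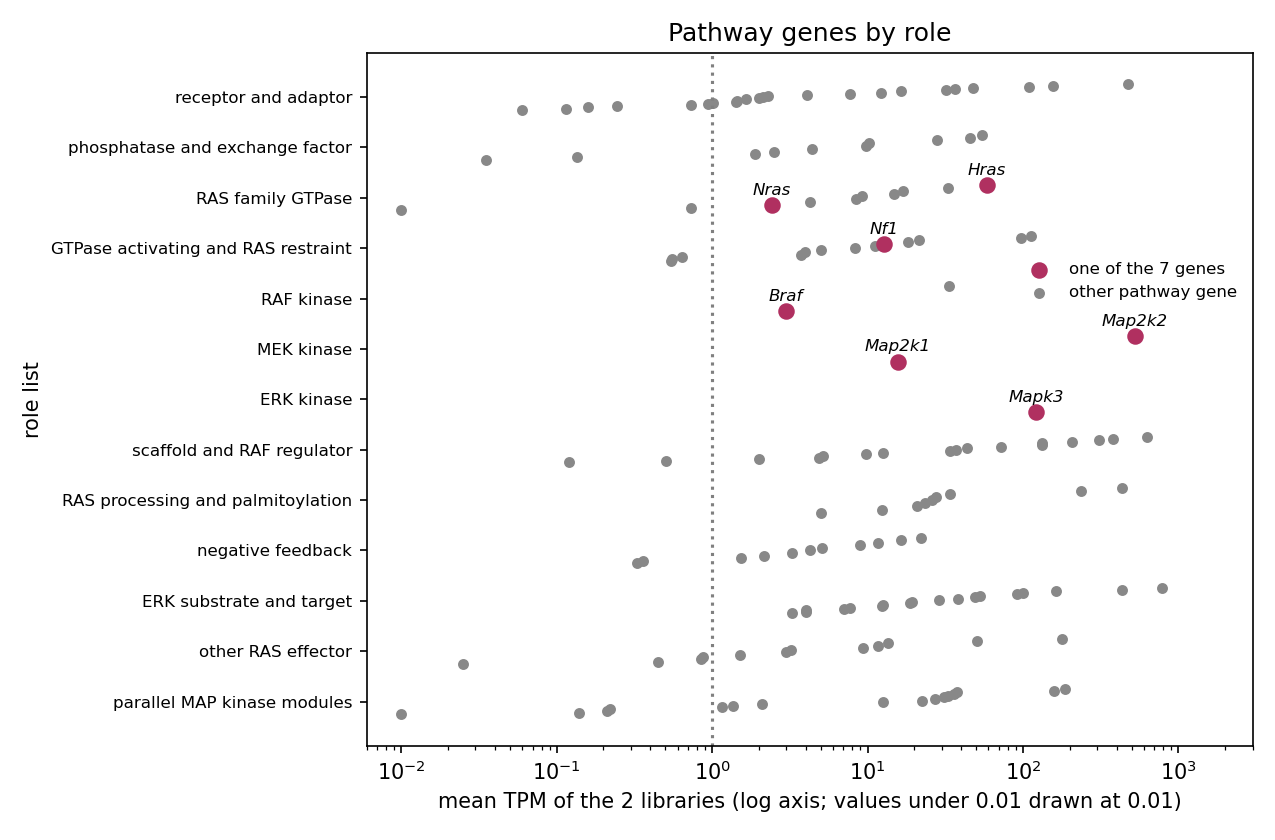
Mean TPM of the 2 libraries on a log axis for every analysed gene of the 13 role lists, with the 7 genes in red and 1 TPM as a dotted line. Map2k2 lies far above Map2k1, Hras is the highest of the RAS family genes shown, and Braf lies below Araf.

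For each gene, the protein-coding gene nearest in level was found by the distance of log2(TPM + 1) over the 2 libraries, among 21467 genes. This was Dusp22 for Nras, Ric8a for Hras, Mapkbp1 for Braf, Fam98c for Map2k1, Uqcrc1 for Map2k2, Imp3 for Mapk3 and Itpr3 for Nf1. Over 2 libraries such a likeness is common: within a distance of 0.1 there were 25 genes for Braf, 24 for Nras, 20 for Map2k1 and 18 for Hras. There were fewer for Mapk3 (11), Nf1 (4) and Map2k2 (1).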

How the data were processed

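Polyadenylated RNA was sequenced with paired ends in 2 libraries of 1 group. The authors deposited expected counts, TPM, FPKM and transcript shares in percent per gene or transcript, on mm10 with GENCODE M4 models, per the file headers and the readme; the aligner, like the quantifier, was not given in the sources used here. Deposited TPM is relative to all rows of a table. Symbols, positions and transcript sequences came from GENCODE M21, which matched 42462 of 43346 Ensembl identifiers; other rows held under 0.1% of counts and were left out. The 7 genes, the lists and the rule for naming genes (the members, the listed RAS, RAF, MEK and ERK genes, up to 3 most abundant others per role list, the nearest gene in level, transcripts of 10% or more, and overlapping genes with 5% or more of a member's counts) were chosen with earlier results of these data known, and a few listed genes are not reported here. Expected counts were rounded and scaled with TMM in edgeR 4.0.16 (R 4.3.3); DESeq2 1.42.0 size factors were an alternative. Ratios used a prior count of 0.5 for genes with 20 or more counts, and the criterion was tested on simulated data. Words of 25 bases were matched among M21 transcripts. Words that also occur in other genes were sought on both strands. Those shared within the MEK gene pair and between Hras and Nras were matched on 1 strand. Intervals and floors (3 counts) cover counting error only. Analyses ran in Python 3.11.15 with pandas 2.3.3, scipy 1.17.1 and matplotlib 3.10.9.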

Additional observations from a re-analysis of the deposited data

How the results depend on the processing

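The calls of genes apart depended on the scale. Of the 7 genes, 2 were apart with TMM, DESeq2 size factors, posterior mean counts, a prior count of 5, no count minimum and centring by transcript length, 1 with total-count scaling (Nras, with 0 higher in replicate 2), 1 after centring by GC content (Map2k1) and 0 with ratios of deposited TPM. Of all protein-coding genes, 2703 with total counts and 2873 with TPM were higher in replicate 1, and 370 and 467 in replicate 2, where TMM gave 1711 and 1028. By counts, which are not per length, the mean shares within pairs were 85.7% for Hras (with Nras), 44.3% for Braf (with Araf) and 96.2% for Map2k2 (with Map2k1), and Braf, with 26.2% of the pair's counts in replicate 1 and 62.4% in replicate 2, exceeded Araf in replicate 2; by TPM they were 96.0%, 14.9% and 97.0%, with ranges over the libraries of 94.96% to 97.1%, 6.22% to 23.5% and 96.7% to 97.4%. All 7 genes stayed at 1 TPM or more by FPKM and posterior mean TPM, 5 reached 5 TPM, and 6 reached 1 TPM over coding transcripts, an alternative chosen after seeing the data, as was the coding mean of 2.39 TPM for Nf1. Effective lengths set by small counts in short transcripts limit the TPM of Nf1, Braf and Nras, and that of Map2k1 in replicate 1. Relative to the median of all genes, the ratio of Araf was 1.97 by counts and 2.83 by TPM. The transcripts of Araf were not examined. No paired analysis was possible because there was 1 group.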
